A study of Drosophila melanogaster with 10 samples.

Results

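Of 17562 genes measured, 7383 were abundant enough for the rule below, and Obp99b and CG4210 are the 2 that met it. By the limits of that rule, their level was reduced in thoraces of flies with a gut tumor and kept in control thoraces. It was still below the starting level after the tumor driver had been shut off. CG4210 met the limit of 0.7 for control thoraces only narrowly, at 0.704 of control day 2 at day 14. It missed that limit under some other scalings of the libraries. A gene had to have at least 5 CPM (reads of the gene per 1000000 reads on genes in its library) in Esg>yki[S3A] thoraces at day 2, to lie within 1.5-fold of control at that day, to be at most 0.6 of its day 2 level in each of the 6 later Esg>yki[S3A] libraries, and to be at least 0.7 of control day 2 in control thoraces at days 14 and 38. The genes were chosen by the CPM of every library. The levels of both are therefore given as a description, with no test.

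RNA came from thoraces of adult males. Esg>yki[S3A] flies carry the transgene UAS-yki-act over UAS-GFP, together with esg-Gal4 and tub-Gal80ts. Their driver expresses an active form of Yorkie, the growth-promoting co-activator of the Hippo pathway, in progenitor cells of the gut. Control flies have the same driver, repressor and GFP reporter with no Yorkie transgene (UAS-GFP/+). Thoraces of Esg>yki[S3A] flies were collected on days 2, 8 and 14 at 29 °C, when the driver is active. Others were collected on days 20, 26, 32 and 38 after 6, 12, 18 and 24 days at 18 °C, when Gal80ts silences the driver. Control thoraces were taken at days 2 and 14 at 29 °C and at day 38 after 24 days at 18 °C. Each of the 10 conditions is 1 library of 8 to 10 pooled thoraces. The range in brackets after a ratio is its 95% interval by the exact Clopper-Pearson method, from the reads of the gene in both libraries. It covers counting error only, not the spread between flies. After day 14 the end of tumor induction and the cooler temperature cannot be told apart within Esg>yki[S3A] flies.

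The fly thorax is mostly flight muscle, with some fat body, the tissue that stores fat and glycogen and secretes most proteins of the blood. Odorant-binding proteins are small secreted proteins that carry hydrophobic ligands. They are best known from the fluid around olfactory neurons, and many are also made outside the antenna. Obp99b, also called tsx, belongs to this family and is known from the fat body of adult flies, where males express more of it. CG4210 is given no role here.

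The libraries held between 14615109 reads on genes (Esg>yki[S3A] day 38) and 38208954 (Esg>yki[S3A] day 32). Genes of the mitochondrial genome took 46.9% of the reads of the Esg>yki[S3A] day 14 library and between 24.3% and 32.5% in the other 9 libraries. The Esg>yki[S3A] day 38 library stood apart from the rest: ninaE, the main rhodopsin of the eye, had 263 CPM there and at most 3.71 CPM in the other 9. For Obp99b and CG4210, the Esg>yki[S3A] day 32 level is therefore given beside that of day 38, while control thoraces at day 32 were not analysed here. Summed over 12 flight muscle markers, the level lay between 23189 and 42463 CPM in Esg>yki[S3A] libraries and between 39906 and 47952 CPM in control libraries, so the labelled tissue was present throughout. In such bulk samples, fewer cells of a type and less RNA per cell cannot be told apart.

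Few genes separated the genotypes in this way. The starting level of 5 CPM was met by 7383 genes, and 6890 of them (93.3%) were within 1.5-fold of control at day 2. Of those 6890, 208 were at most 0.6 of day 2 in all 6 later Esg>yki[S3A] libraries. Without the limit on likeness to control at day 2, 343 of all 7383 genes (4.65%) were as low in all 6. Taken 1 library at a time, the genes at most 0.6 of day 2 numbered from 532 of 7383 at day 32 to 1847 of 7383 at day 14. In control thoraces, 88.5% of the 7383 genes kept at least 0.7 of day 2 at day 14, 84.1% at day 38 and 79.8% at both. The control step nonetheless removed 206 of the 208 genes, 182 of them because they were under 0.7 at both days, 5 only at day 14 and 19 only at day 38. The 2 genes left are 0.962% of the 208 and 0.0271% of the 7383. No gene was dropped for its symbol, and the limit of the lowest 200 genes was not reached.

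**Figure D1:**
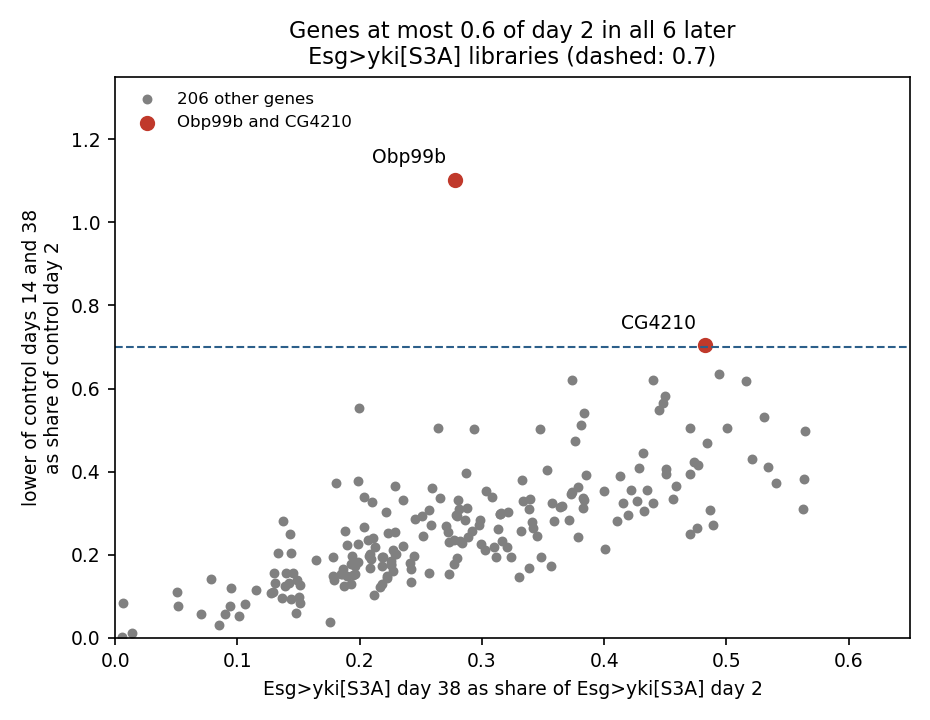
Each point is 1 of the 208 genes that were at most 0.6 of day 2 in all 6 later Esg>yki[S3A] libraries. The horizontal axis gives the Esg>yki[S3A] day 38 level as a share of Esg>yki[S3A] day 2, and the vertical axis the lower of the control day 14 and day 38 levels as a share of control day 2. The dashed line is the limit of 0.7, which Obp99b passed at 1.10 and CG4210 at 0.704, and 206 genes lie below it.

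Obp99b (FBgn0039685) is encoded on the minus strand of chromosome 3R (BDGP6, positions 29716254 to 29716896). It is annotated with 2 transcripts and 594 bases of merged exon, of which 447 are coding, and it overlaps no other gene. At day 2 it was alike in the genotypes, with 149.6 CPM in Esg>yki[S3A] thoraces and 140.9 CPM in control thoraces. During tumor induction its level in Esg>yki[S3A] thoraces was 6.54 CPM at day 8 and 1.36 CPM at day 14. The first 6 days thus held most of the loss: day 8 was 22.9-fold lower than day 2 (19.6 to 26.8), and day 14 was a further 4.81-fold lower than day 8 (3.42 to 6.88). The day 14 value rests on 43 reads and was 110-fold lower than day 2 (81.5 to 152).

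Control thoraces did the opposite over the same time at 29 °C. Obp99b had 974.5 CPM in control thoraces at day 14, against 140.9 CPM in control thoraces at day 2, a 6.91-fold higher level (6.69 to 7.15). In all, 11.2% of 7383 genes were more than 2-fold higher in control thoraces at day 14 than at day 2, and Obp99b was the 13th highest of the 7268 genes with at least 5 CPM in control thoraces at day 2. At day 38, after 24 days at 18 °C, control thoraces had 155.3 CPM, which is 1.10 of control day 2 (1.05 to 1.16), a direction that turned with TMM or DESeq2 factors (log2 ratios of −0.32 and −0.29 in place of 0.14), and 6.27-fold lower than control day 14 (6.04 to 6.52). The rule asks only that the control level be kept, so the higher control level at day 14 is more than it required.

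Between the genotypes, Obp99b at day 14 had 1.36 CPM in Esg>yki[S3A] and 974.5 CPM in control thoraces, a 716-fold lower level (531 to 989) and a log2 ratio of −9.48, which was −8.69 with 1 CPM added to both. It was the 10th lowest of 7748 genes in this ratio, and 15.9% of those genes were more than 2-fold lower. With TMM factors, DESeq2 factors or mitochondrial reads left out, Obp99b was 564-fold, 580-fold or 537-fold lower at day 14. At day 38 it had 41.5 CPM in Esg>yki[S3A] and 155.3 CPM in control thoraces, a 3.74-fold lower level (3.43 to 4.09). It was the 19th lowest of 7733 genes there, of which 0.918% were more than 2-fold lower. The gap was thus much narrower at day 38, with the Esg>yki[S3A] level higher and the control level lower than at day 14. The day 38 ratio sets an Esg>yki[S3A] library with 263 CPM of the eye gene ninaE against a control library with 0.27 CPM of it.

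After the shift to 18 °C, Obp99b did not come back at once. Its level in Esg>yki[S3A] thoraces was 1.53 CPM at day 20, on 35 reads, which is 1.13 times day 14 with an interval that includes no change (0.70 to 1.80). It was 4.12 CPM at day 26, 38.5 CPM at day 32 and 41.5 CPM at day 38. The step from day 26 to day 32 was 9.36-fold (7.75 to 11.4), the largest rise between neighboring days, while day 38 was 1.08 times day 32 (0.98 to 1.19). Day 38 was 30.5-fold higher than day 14 (22.4 to 42.6), a log2 ratio of 4.93 that was 4.17 with 1 CPM added, the 18th highest such ratio of 7344 genes, of a background in which 37.9% of 7383 genes were more than 1.5-fold higher. Day 32, in a library without the eye transcripts, gave 28.3-fold (20.9 to 39.3). Obp99b therefore returned in part, to 0.258 of day 2 at day 32 (0.243 to 0.273) and 0.278 at day 38 (0.255 to 0.302). To call it lost and not restored describes its distance from day 2, not its course from day 14.

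Ordered by level, the Obp99b libraries ran from Esg>yki[S3A] day 14 and day 20, which did not differ beyond counting error, through day 26 and day 8 to day 32 and day 38, which again did not differ, and then to the day 2 and day 38 controls and Esg>yki[S3A] day 2. These 3 lay between 140.9 and 155.3 CPM. Control day 14 stood alone at the top. No later Esg>yki[S3A] library reached the lowest control library.

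**Figure D2:**
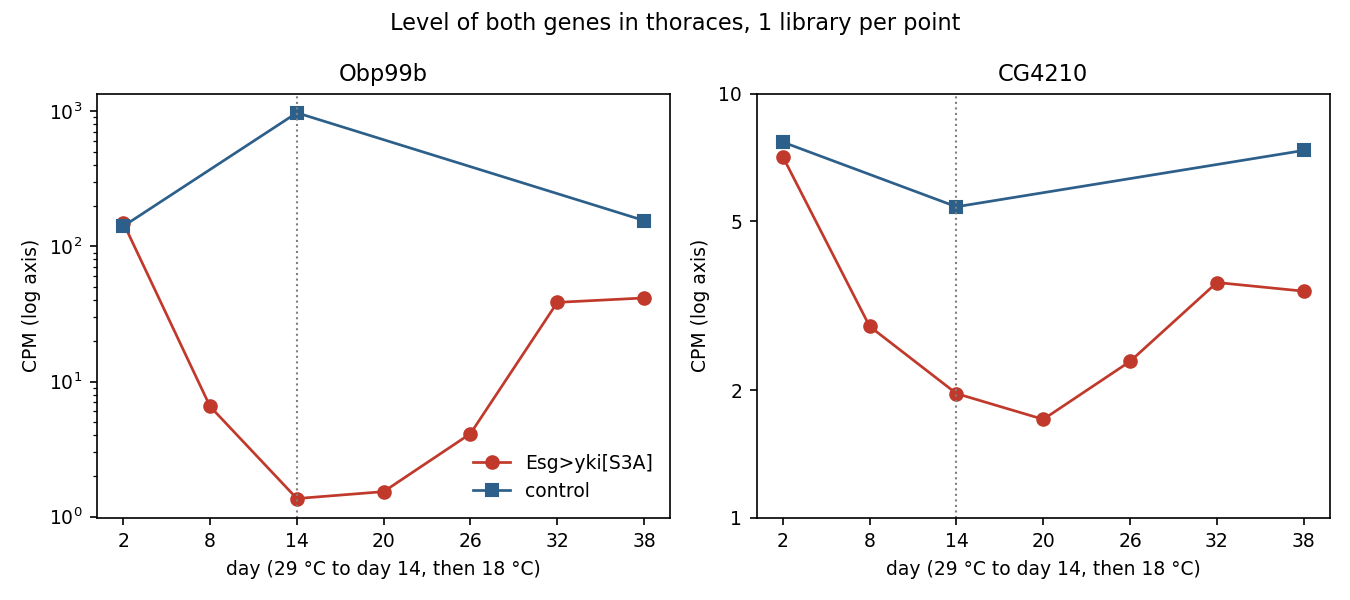
Levels of Obp99b and CG4210 in CPM on a log axis against the day of collection, with 1 point for each of 7 Esg>yki[S3A] and 3 control libraries. Obp99b in Esg>yki[S3A] thoraces was lowest at day 14 (1.36 CPM) and day 20 (1.53 CPM), while control thoraces had 974.5 CPM at day 14. CG4210 spanned 1.71 to 7.09 CPM in Esg>yki[S3A] and 5.41 to 7.68 CPM in control thoraces.

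CG4210 (FBgn0038302) is encoded on the plus strand of chromosome 3R (positions 15213974 to 15214845), with 1 transcript of 4 exons and 682 bases, of which 522 are coding. It was much less abundant than Obp99b: per length, it had 10.4 RPKM (CPM divided by the exon length in kilobases) in Esg>yki[S3A] thoraces at day 2, where Obp99b had 251.8 RPKM. Its level in Esg>yki[S3A] thoraces was 7.09 CPM at day 2, 2.83 CPM at day 8, 1.96 CPM at day 14, 1.71 CPM at day 20, 2.34 CPM at day 26, 3.59 CPM at day 32 and 3.42 CPM at day 38. In control thoraces it had 7.68 CPM at day 2, 5.41 CPM at day 14 and 7.34 CPM at day 38. The lowest of its levels came at days 14 and 20, as for Obp99b, and no later Esg>yki[S3A] library reached a control library.

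The changes of CG4210 were smaller and less precise than those of Obp99b, as its reads numbered only 39 to 266 per library. Day 14 was 0.277 of day 2 in Esg>yki[S3A] thoraces (0.206 to 0.366), day 32 was 0.505 (0.408 to 0.623) and day 38 was 0.482 (0.349 to 0.654). At day 38 it was 1.74 times day 14 (1.18 to 2.57), and at day 32 it was 1.83 times day 14 (1.34 to 2.51). The genotypes had alike levels at day 2, at 0.923 of control (0.770 to 1.11). Relative to control, its Esg>yki[S3A] level was 2.76-fold lower at day 14 (2.05 to 3.75) and 2.15-fold lower at day 38 (1.54 to 3.03). In this ratio it was the 442nd lowest of 7748 genes at day 14 and the 62nd lowest of 7733 at day 38. As for Obp99b, the day 38 ratio compares libraries that differ in eye transcripts. With TMM factors, DESeq2 factors or mitochondrial reads left out, CG4210 was 2.17-fold, 2.23-fold or 2.07-fold lower at day 14.

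CG4210 sat near the limits of the rule. Its control day 14 level was 0.704 of control day 2 with an interval from 0.573 to 0.864, which spans the limit of 0.7. Its Esg>yki[S3A] intervals at days 32 and 38 span the limit of 0.6. The TMM factors of edgeR set the bulk of genes as unchanged. With them, the control share of CG4210 was 0.551 at day 14 and 0.694 at day 38, and the gene was not chosen. The last exon of CG4210 shares 84 bases, 12.3% of its exon length, with SIDL on the other strand, and whether reads were counted by strand is not given in the sources used here. SIDL had 36.5 to 63.2 CPM in Esg>yki[S3A] and 42.0 to 53.2 CPM in control libraries.

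**Figure D3:**
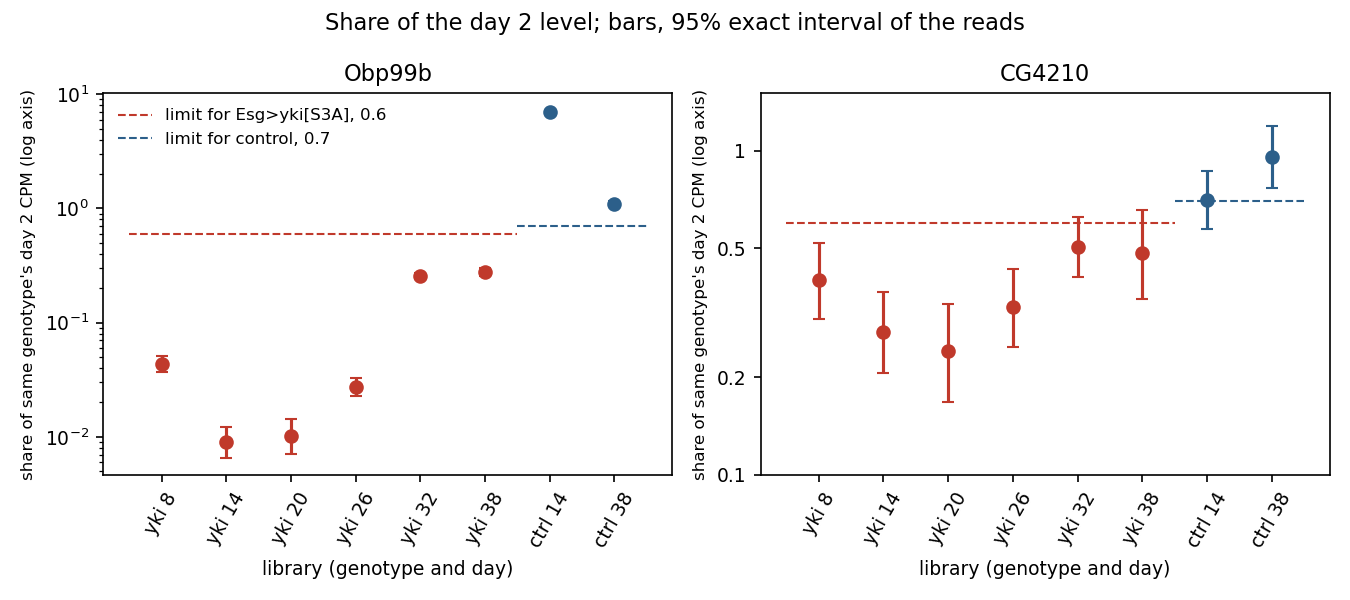
Level at each later day as a share of the same genotype's day 2 level, on a log axis, with bars for the 95% exact interval of the reads. Obp99b in Esg>yki[S3A] thoraces was 0.0091 of day 2 at day 14 and 0.278 at day 38, against 6.91 and 1.10 in control thoraces. CG4210 was 0.277 and 0.482 in Esg>yki[S3A] thoraces, against 0.704 and 0.956 in control thoraces.

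Genes just outside the limits show how close others came. On the control side, the next genes were Gal, a beta-galactosidase, whose lowest control share was 0.635, and Jheh3, a juvenile hormone epoxide hydrolase, at 0.621. On the Esg>yki[S3A] side, CG18302 missed the limit of 0.6 with 0.603 at day 26, CG31205 with 0.608 at day 32, and Lectin-galC1, a galactose-binding lectin, with 0.611 at day 8. The next was fabp, a fatty acid binding protein, with 0.644 at day 38.

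The 206 genes removed by the control step differ from Obp99b and CG4210 in what happened in control thoraces. Over all 208 genes, the median share of day 2 at day 14 was 0.191 in Esg>yki[S3A] flies and 0.352 in control flies, and at day 38 it was 0.275 in Esg>yki[S3A] flies and 0.270 in control flies. Over all 7383 genes the day 14 medians were 0.95 in Esg>yki[S3A] flies and 1.22 in control flies, and the day 38 medians were 1.21 in Esg>yki[S3A] flies and 1.29 in control flies. The median ratio of Esg>yki[S3A] to control thoraces at day 38 was 0.939 over the 208 genes and 0.952 over all genes, where Obp99b had 0.267 and CG4210 had 0.466. The rule used these same libraries, so the distance of the 2 genes from the medians is in part built in. The 208 genes included 11 of 16 measured TCA cycle genes, 6 of 12 glycolysis genes and 11 of 31 sarcomere genes. The background is 208 of the 6890 genes alike at day 2. Without the limit on likeness at day 2, 4.65% of all 7383 genes were as low. The 208 genes held 0 of 7 measured fat body markers, a number too small to set against that background. Obp99b belongs to the list of odorant-binding and pheromone-binding genes, of which 7 had at least 5 CPM, and CG4210 to no list.

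The odorant-binding protein family was examined gene by gene. The files hold 54 of its genes, 4 of them with 0 reads in all libraries, and 14 met the starting level of 5 CPM. Of the 13 besides Obp99b, 7 were at most 0.6 of day 2 in the Esg>yki[S3A] day 14 library, as were 1847 of all 7383 genes, and 8 were more than 2-fold lower than control at day 14, against 15.9%. At day 38, 2 of the 13 were at most 0.6 of day 2, as were 932 of all 7383 genes, and 0 were more than 2-fold lower than control, against 0.918% of all genes. None of the 13 was at most 0.6 of day 2 in all 6 later libraries, against 4.65% of all genes. Both zeros are near what those backgrounds give. Their median level relative to control at day 14 was 0.343, where Obp99b had 0.0014.

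Several of these genes had a low day 14 level and then a return. Obp99c, also on chromosome 3R, had 154 CPM in Esg>yki[S3A] and 533 CPM in control thoraces at day 14, but 696 CPM in Esg>yki[S3A] and 600.4 CPM in control thoraces at day 38. Obp44a had 2.31 CPM in Esg>yki[S3A] and 11.4 CPM in control thoraces at day 14, and 15.7 CPM in Esg>yki[S3A] and 16.0 CPM in control thoraces at day 38. Obp56a had 6.90 CPM in Esg>yki[S3A] and 33.4 CPM in control thoraces at day 14, and 26.3 CPM in Esg>yki[S3A] and 38.5 CPM in control thoraces at day 38. The 2 genes still at most 0.6 of day 2 in Esg>yki[S3A] thoraces at day 38 were Obp83g, at 0.243, and Obp57c, at 0.448. In control thoraces at day 38, Obp83g was 0.151 of day 2 and Obp57c was 0.630. The log2 ratios to control at day 14 of the 13 genes ranged from −2.85 for Obp83g to −0.15 for Obp18a, below 0 for all 13 by library totals. With TMM or DESeq2 factors, or with mitochondrial reads left out, Obp18a was above 0, and 7 of the 13 were more than 2-fold lower. The share of all genes that were more than 2-fold lower was taken with library totals only, so nothing is read from that count.

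**Figure D4:**
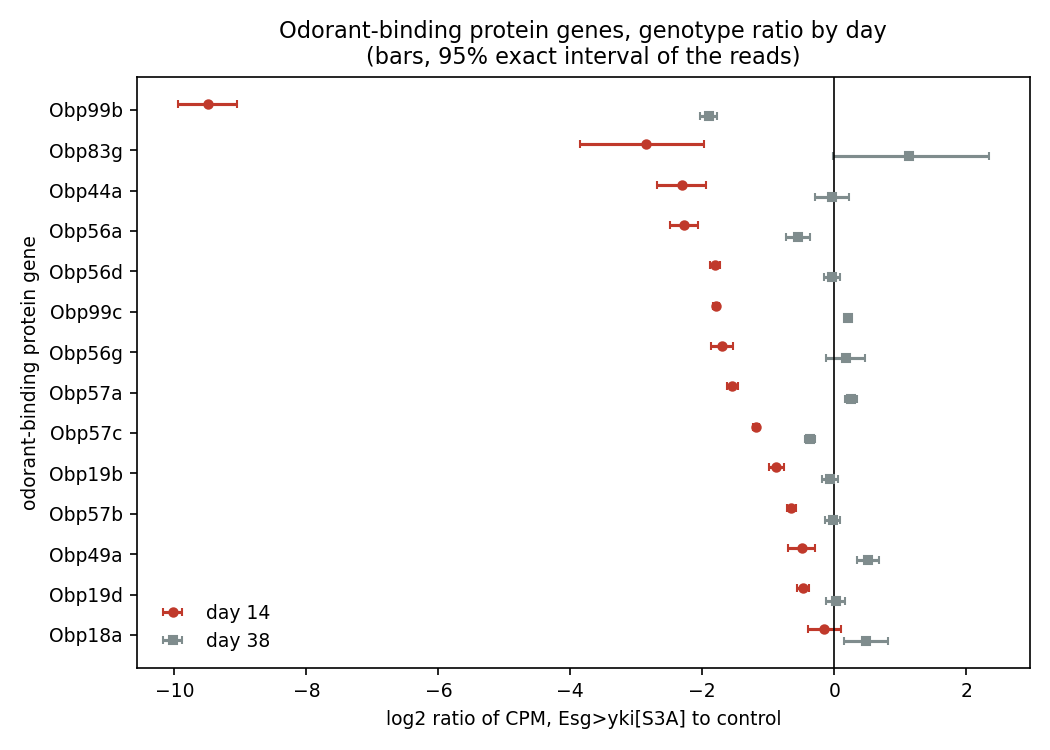
Log2 ratio of CPM in Esg>yki[S3A] to control thoraces at day 14 and day 38 for the 14 odorant-binding protein genes that met the starting level of 5 CPM, with bars for the 95% exact interval of the reads. At day 14 Obp99b was at −9.48 and the next lowest, Obp83g, at −2.85. At day 38 Obp99b was at −1.90, and Obp56a was the next lowest at −0.55.

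Most genes next to Obp99b on the chromosome were too low to be compared. The nearest neighbor of Obp99b, Dup99B, a male ejaculatory duct peptide 877 bases away, had at most 0.03 CPM in every library, and Obp99d, 1250 bases away, had 0.26 to 1.26 CPM. Pcd, 6267 bases away and the only one of its 8 nearest genes with at least 5 CPM at day 2, had 8.96 to 16.2 CPM in Esg>yki[S3A] and 6.48 to 13.0 CPM in control libraries. CG6654, 316 bases from CG4210, had 11.1 to 24.0 CPM in Esg>yki[S3A] and 12.7 to 18.5 CPM in control libraries. Neither Pcd nor any of the 6 near CG4210 that had at least 5 CPM at day 2 was at most 0.6 of it in all 6 later Esg>yki[S3A] libraries, against a background of 4.65% of genes, so nothing is read from it.

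Likeness of profile was measured by Pearson correlation of log2 CPM over the 10 libraries, which differ in depth and were all scaled by library totals, among 8415 genes with at least 5 CPM in any library. This measure was chosen after the values had been seen, and it is a description of how levels run together. The 5 genes most like Obp99b were CG11407 (r = 0.97), CG16926 (0.96), CG31205 (0.95), CG14400 (0.94) and Lsp1beta (0.94), a larval serum protein of the fat body. Lsp1beta had 0.38 CPM in Esg>yki[S3A] and 472 CPM in control thoraces at day 14. Unlike Obp99b, it had 205 CPM in Esg>yki[S3A] and 37.7 CPM in control thoraces at day 2, and 12.4 CPM in Esg>yki[S3A] and 15.01 CPM in control thoraces at day 38. The genes most like CG4210 were Rnb (0.94), tfc (0.94) and plh (0.92). Obp99b and CG4210 had r = 0.90 with each other, the 12th highest for Obp99b and the 8th highest for CG4210. The rule chose both for the same course over these libraries, so a high r between them was built in.

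Fat body markers were also lower than control at day 14 by library totals: 6 of the 7 with at least 5 CPM were more than 2-fold lower, against 15.9% of all genes. Neither count was repeated with the other scalings. Genes with at least 5 CPM at Esg>yki[S3A] day 2 under each scaling had a median log2 ratio to control at day 14 that moved with it. It was −0.37 with totals, −0.02 with TMM and 0.05 with mitochondrial reads left out. Summed over the 9 markers in the files, the level lay between 9451 and 21652 CPM in Esg>yki[S3A] and between 9819 and 24720 CPM in control libraries, with 9451 CPM in Esg>yki[S3A] and 24720 CPM in control thoraces at day 14. The carrier apolpp, the major lipoprotein of the blood, held most of this sum, with 8549 CPM in Esg>yki[S3A] and 21188 CPM in control thoraces at day 14. Lsp2, another larval serum protein, had 0.16 CPM in Esg>yki[S3A] and 146 CPM in control thoraces at day 14, and 87.3 CPM in Esg>yki[S3A] and 2.05 CPM in control thoraces at day 38. The part that the amount of fat body in each library may have in the Obp99b result was not tested. Midgut markers, summed over 10 genes, were at 159 CPM in the Esg>yki[S3A] day 2 library and at 7.34 to 40.8 CPM in the later ones, against 31.7 to 48.2 CPM in control libraries. Their part in the result was not tested.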

How the data were processed

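Libraries were rRNA-depleted and sequenced by the authors in 4 pools each, and reads were aligned with STAR to the FlyBase genome. Submitters' processing notes instead name the mouse build mm10, but gene identifiers in the files are FlyBase's. The counting program and its use of strand are not given in the sources used here. The authors deposited an expected count per gene, in multiples of 0.25. Multiplied by 4, on the assumption of a mean over 4 pools, every value is whole; these were taken as reads. CPM divides reads by the library total on genes, and RPKM also by merged exon length from Ensembl release 115 (99.7% of identifiers matched).

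Groups came from the labels. With 1 library per condition no test was run. Members and gene lists were chosen with earlier results of these data known. Named genes were to be the members with the lowest, highest and most changed levels, which with 2 members meant both. Neighbors, other family members, near misses and like profiles were named after their values were seen. Python 3.11.15 with scipy 1.17.1 was used, with scaling factors from edgeR 4.0.16 and DESeq2 1.42.0. The selection was run on simulated data with counting error only, where abundant genes were lowered well past the limit. It therefore cannot speak for genes near the limits or for the spread between flies. Promoter motifs were not analysed here. Alternatives changed scaling, limits and libraries.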

Additional observations from a re-analysis of the deposited data

Results flagged for a closer look

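Obp99b moved opposite ways in the genotypes at 29 °C. From day 2 to day 14 its log2 ratio was −6.78 in Esg>yki[S3A] flies, against 2.79 in control flies. Each genotype has 1 library per day, and the difference was not tested.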

How the results depend on the processing

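Obp99b was chosen under every alternative run, and CG4210 was lost under 5 of them. In place of 2 genes the rule gave 4 with TMM, 5 with DESeq2 factors (CG4210 lost in both) and 4 with mitochondrial reads left out. It gave 1, Obp99b, with at least 20 CPM at day 2, with at most 0.5 of day 2, or with controls at least 0.9. With at least 1 CPM at day 2 it gave 3, as CG17127 joined the 2 genes. Leaving out a library gave 4 genes (Esg>yki[S3A] day 8 or day 26), 6 (Esg>yki[S3A] day 32 or day 38, or control day 14) and 18 (control day 38). Limits chosen after seeing the data gave 17 (controls at least 0.5), 10 (at most 0.7 of day 2) and 154 (control step and limit on rank left out, symbol filter kept).

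For Esg>yki[S3A] day 38 over day 2, the median log2 ratio of the 2 genes was −1.45, against −1.85 with TMM and −1.80 with DESeq2 factors. With at least 20 CPM, which leaves Obp99b alone, it was −1.85, and from day 14 to day 38 it was 4.93 in place of 2.87. The ratio to control at day 14 was −5.47, against −4.90 with 1 CPM added and −9.48 with at least 20 CPM. At day 38 it was −1.50, against −1.90 with at least 20 CPM. The control day 38 to day 2 ratio of Obp99b, 0.14, turned to −0.32 with TMM and −0.29 with DESeq2 factors. The cause was not tested. The median of the same ratio was taken over the genes with at least 5 CPM at Esg>yki[S3A] day 2 under each scaling. It was 0.37 with totals (7383 genes), −0.09 with TMM and −0.06 with DESeq2 factors. No paired analysis was possible because each condition is 1 library and the labels give no replicate numbers. Counting error limits Obp99b most in Esg>yki[S3A] thoraces at days 14 (43 reads) and 20 (35 reads), and CG4210 throughout (39 to 266 reads).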

Other observations

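Transcripts of the eye and antenna were present in the Esg>yki[S3A] day 38 library, a set of genes looked at after its values were seen. Arr2 and Arr1, the arrestins of photoreceptors, had 185 and 137 CPM there and at most 3.60 and 1.76 CPM in the other 9 libraries. The phototransduction genes ninaC and trp had 58.9 and 44.4 CPM there. Of 11 antennal genes looked at, 9 were highest in this library, and Or43b and Ir8a were not: Or43b had 3.08 CPM there and 4.49 CPM in Esg>yki[S3A] thoraces at day 8. Obp83b had 3.35 CPM, Obp83a 2.81 CPM, and Orco, the olfactory co-receptor, 1.37 CPM, on 20 reads. Obp99b in Esg>yki[S3A] thoraces had 41.5 CPM at day 38 and 38.5 CPM at day 32, where ninaE had 0.26 CPM. Each day is 1 library, and the part of eye and antenna tissue in the day 38 level of Obp99b was not tested.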
